A study of Mus musculus with 4 samples.

Results

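Solute carriers are membrane proteins that move ions, vitamins, nucleosides, metals and other small molecules across the plasma membrane and the membranes of organelles. The carriers described here are the 104 listed genes whose symbol has the form Slc, number, a, number, or begins with Slco, without the mitochondrial Slc25 family, without the families known mainly for amino acids (Slc1, Slc3, Slc6, Slc7, Slc36, Slc38 and Slc43) and without 9 single carriers of glucose, lactate, iron and organic anions. They were chosen by name alone from 12693 gene symbols, of which 184 have a solute carrier name of this form. The filter for testing was an average normalized count of at least 10, and all 104 passed it. The samples were brain endothelial cells (ECs) sorted by CD31, a surface protein of endothelium, from the cerebral cortex of C57BL/6 embryos at embryonic day 18. RNA-seq was done on 2 samples labelled WT and 2 labelled FOXQ1fl/fl;Tie2-Cre, called *Foxq1* cKO here. In the latter, Cre is driven by the *Tie2* promoter, which is active in endothelium and also in blood-forming cells, and littermates lacking Cre are named as controls in the study's methods. The labels give brain as the source and do not say how many embryos went into a sample, so p-values measure only the spread between these samples, which may be technical.

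Because the tight junctions between brain ECs leave little room for diffusion, most polar nutrients enter the brain through carriers in the endothelial membranes. Brain endothelium is known for carriers of thyroid hormone, nucleosides, folate, thiamine, riboflavin and organic anions. Ion cotransporters and exchangers set cell volume and pH, and zinc, copper and choline carriers supply enzymes and membranes.

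The libraries held between 15827166 and 21466436 reads on listed genes. *Foxq1* had 353 and 297 normalized counts in wild-type samples and 5.44 and 32.6 in *Foxq1* cKO samples. All 10 endothelial markers were listed, with sums of 227449 to 270044 normalized counts, which does not measure how pure the sort was. Markers of pericytes, the cells that wrap capillaries, were abundant too, with sums over 8 genes between 146111 and 160522. A fold change below is on the log2 scale of normalized count plus 1, *Foxq1* cKO minus wild-type. The added 1 shrinks the ratios of genes with few counts. A very low value in 1 replicate can instead enlarge the fitted change, as for *Slc15a2* and *Slc14a1* below. Fewer cells of a type and less RNA per cell cannot be told apart in such samples.

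Among the 104 carriers, 2 were higher and 7 were lower in *Foxq1* cKO samples at an unadjusted p under 0.05 in limma. The higher genes were *Slc2a9*, a urate carrier, and *Slc4a7*, a sodium bicarbonate cotransporter. The lower genes were *Slco2a1*, the prostaglandin transporter, *Slc52a3*, a riboflavin transporter, the nucleoside transporters *Slc29a1* and *Slc29a4*, the choline transporter *Slc44a1* with its relative *Slc44a5*, and *Slc12a9*, of the cation-chloride cotransporter family. These 9 genes were 8.65% of the carriers, against 5.22% of all 12472 genes tested. By direction, the higher carriers were 1.92% against a background of 2.17%, and the lower carriers 6.73% against 3.05%. None passed Benjamini-Hochberg adjustment over all genes in limma (0% of all genes did), where the smallest adjusted p of a carrier was 0.857, and none did in edgeR, which gave 2 higher and 7 lower carriers unadjusted. DESeq2 on the recovered reads gave an adjusted p under 0.05 to 3 carriers, *Slco2a1*, *Slc52a3* and *Slc2a9*, 2.88% of the carriers against 0.465% of all genes. In what follows, called means an unadjusted p under 0.05 in limma. The background for each group or list below is the same, 2.17% of all genes called higher and 3.05% called lower. No group was tested as a group.

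These counts depended on single libraries. Without wild-type replicate 2, 12 carriers (11.5%) were called higher and 12 lower, where 7.89% and 4.75% of all genes were. Without wild-type replicate 1 the numbers were 6 (5.77%) and 6, against 4.07% and 2.54% of all genes, and without *Foxq1* cKO replicate 1 they were 2 (1.92%) and 4 (3.85%), against 0.53% and 1.69%.

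**Figure D1:**
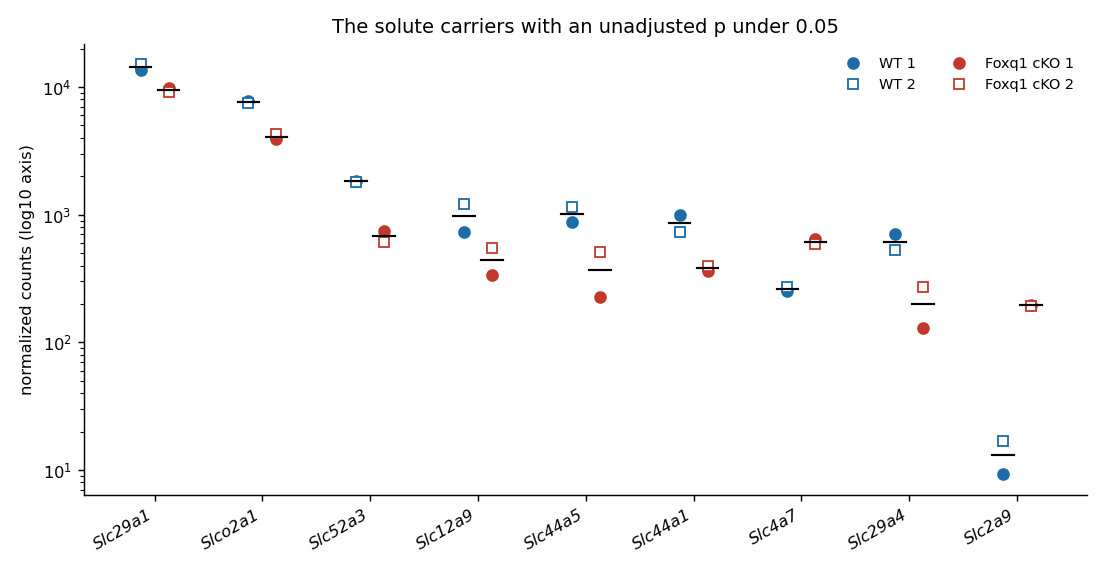
Normalized counts of the 9 called carriers on a log10 axis, with 1 point per sample (circles replicate 1, squares replicate 2) and a bar at each group mean. The groups are apart for every gene shown, and *Slc2a9* has the widest gap, from 9.27 and 16.9 in wild-type to 196 and 193 in *Foxq1* cKO samples.

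FOXQ1 is a forkhead transcription factor, and the promoter windows that RefSeq gives for the carriers were searched for the forkhead core motif and 3 common promoter motifs (GRCm38.p6, 250 bases before to 50 after each start). Of the 104 carriers 82 had a window, and of the 9 called carriers 8 had one. The forkhead core TGTTTA, searched on both strands, was present in 13.4% of all 32851 windows and in 10.7% of the 112 windows of carriers. None of the 16 windows of called carriers held it, which says only that these letters are not in these windows. The 16 windows belong to 8 genes, and several are of *Slc29a1* alone. The study reports a preference of FOXQ1 for GTTTC, which was not searched. The GC box GGGCGG, on both strands, was present in 66.1% of the carriers' windows and in 35.7% of all windows. All windows cover 27025 genes, including genes not listed here, and no share was taken over the listed genes alone. The CCAAT box was in 29.5% against 37.4%, and the TATA box TATAAA in 8.04% against 13.6%. The 250 bases before the start are shown for *Slco2a1*, the called carrier with the smallest p, and for *Slc29a4*, the called carrier with the lowest log2 fold change, with matches to the GC box and the TATA box on either strand in capitals and neighbouring GC boxes overlapping in *Slc29a4*. The first lies at chr9:103008237-103008486 and the second at chr5:142701851-142702100, both on the plus strand. Both lie inside the genes as annotated by GENCODE, which begin at 102988712 and 142692512. The starts used here are thus internal to those genes.
*Slco2a1*: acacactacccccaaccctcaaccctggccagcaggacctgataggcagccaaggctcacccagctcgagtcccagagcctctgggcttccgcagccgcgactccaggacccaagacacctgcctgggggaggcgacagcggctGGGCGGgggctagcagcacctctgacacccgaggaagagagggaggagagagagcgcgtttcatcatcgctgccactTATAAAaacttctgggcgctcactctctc
*Slc29a4*: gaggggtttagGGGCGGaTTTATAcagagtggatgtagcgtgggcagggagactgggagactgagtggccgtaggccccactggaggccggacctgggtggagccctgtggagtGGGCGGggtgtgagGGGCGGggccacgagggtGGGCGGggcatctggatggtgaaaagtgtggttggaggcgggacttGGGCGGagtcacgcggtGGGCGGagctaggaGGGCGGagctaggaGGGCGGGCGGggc
The *Slco2a1* sequence held 1 match to the GC box and 1 to the TATA box. The *Slc29a4* sequence held 9 matches to the GC box and 1 to the TATA box. This last match is on the minus strand and near the end of the sequence far from the start. These are matches of letters only. The whole windows had a GC content of 64% and 70%, against a median of 52.7% over all windows, including those of genes not listed.

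Organic anion, organic cation and peptide carriers were a mixed group of 12 genes, with 1 called lower and a median log2 fold change of 0.35. *Slco2a1*, which takes up prostaglandins such as PGE2, had 7706 and 7533 normalized counts in wild-type samples and 3889 and 4292 in *Foxq1* cKO samples. Both *Foxq1* cKO values lay far below both wild-type values, and the replicates of each group were close. The mean was 53.7% of wild-type (log2 fold change -0.90, standard error 0.151, unadjusted p = 0.000973 from limma). DESeq2 gave an adjusted p of 0.00301. In GRCm38 *Slco2a1* (ENSMUSG00000032548) lies on the plus strand of chromosome 9, at 102988712 to 103096002, and its exons share 104 bases with *n-R5s89* on the opposite strand.

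None of the other 4 Slco genes was called. *Slco2b1*, an uptake carrier of organic anions, was the most abundant of the group per kilobase of exon, at 2570 normalized counts per kb in wild-type and 3118 in *Foxq1* cKO cells. Its 4 values were 12343 and 18286 against 17186 and 19966, which overlap, and the 95% interval of its log2 fold change ran from -0.20 to 0.80. *Slco3a1* had 276 and 88.7 normalized counts in wild-type against 76.2 and 13.2 in *Foxq1* cKO samples, apart but with an unadjusted p of 0.0967 in limma. *Slco5a1*, just outside the threshold (unadjusted p = 0.0510 in limma), had 113 and 33.9 against 203 and 342, the opposite arrangement. *Slco4a1* had 112 and 94.7 against 76.2 and 44.8.

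Among the peptide and carnitine carriers, *Slc15a2*, which imports di- and tripeptides, had 16.9 and 312 normalized counts in wild-type samples and 419 and 416 in *Foxq1* cKO samples. The groups were apart, the wild-type values differed widely, and the unadjusted p was 0.110 in limma. *Slc22a5*, the carnitine transporter, had 139 and 690 against 443 and 723, and overlapped. *Slc15a4*, a lysosomal carrier of histidine and peptides, and *Slc10a7*, a member of the bile acid carrier family, overlapped too, with log2 fold changes of 0.41 and 0.03. *Slc10a3* and *Slc22a23* had log2 fold changes of 0.39 and 0.27, and of these only *Slc10a3* had its groups apart. *Slc22a15* overlapped at 11.8 and 137 against 82.7 and 54.9, with a log2 fold change of 0.71 in limma and -0.11 in DESeq2.

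Vitamin and haem carriers made up 9 genes, and 7 of them had both *Foxq1* cKO samples below both wild-type samples. Over all genes this arrangement was found in 18%, and over all carriers in 26.0% (27 of 104). These shares do not allow for level. The 7 genes were all abundant, averaging from 1110 (*Slc48a1*) to 4653 (*Slc19a1*) over the samples, while *Slc46a1* and *Slc49a4* averaged 122 and 129. Among genes averaging 1000 or more, the arrangement was found in 23.5% of all genes and 45.5% of the carriers. Of the 7 only *Slc52a3* was called, and the median log2 fold change of the 9 was -0.44. *Slc52a3*, a riboflavin transporter of the plasma membrane, had 1838 and 1804 normalized counts in wild-type samples and 745 and 611 in *Foxq1* cKO samples. The wild-type replicates nearly coincided, and the 2 *Foxq1* cKO samples lay well below them. Its mean was 37.2% of wild-type (log2 fold change -1.43, standard error 0.273, unadjusted p = 0.00188 from limma), and DESeq2 gave an adjusted p of 0.00593. *Slc52a3* (ENSMUSG00000027463) lies on the plus strand of chromosome 2, at 151996511 to 152009258.

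*Slc52a2*, the other riboflavin transporter listed, had 1813 and 1631 normalized counts against 1302 and 1170 (log2 fold change -0.48, unadjusted p = 0.0937 in limma). *Slc19a3*, a thiamine transporter, had 2184 and 1476 against 899 and 1328 (unadjusted p = 0.0716 in limma). For *Slc19a1*, the reduced folate carrier, the values were 4890 and 5433 against 4239 and 4048 (unadjusted p = 0.0978 in limma). These 3 genes had their groups apart, with *Foxq1* cKO means at 71.8%, 60.8% and 80.3% of wild-type.

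*Slc46a3*, a carrier of lysosomes, had 4551 and 4384 normalized counts in wild-type samples and 2905 and 3721 in *Foxq1* cKO samples (unadjusted p = 0.0621 in limma). *Slc23a2*, which imports ascorbate, and *Slc48a1*, which moves haem out of endosomes and lysosomes, had *Foxq1* cKO means at 84% and 68.8% of wild-type with unadjusted p-values of 0.206 and 0.131 in limma. *Slc46a1*, the proton-coupled folate carrier, had 59.0 and 196 against 132 and 101, and its sign depended on the scaling. *Slc49a4* also overlapped. Carriers were grouped by gene family. *Slc46a3* is therefore counted here beside *Slc46a1* and not by what it carries, and the biotin and pantothenate carrier *Slc5a6* is counted with the sodium-coupled carriers. It overlapped too, at 492 and 1106 against 284 and 858. The plot of the vitamin and haem carriers as a percent of the wild-type mean shows the 7 and the 2 side by side.

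**Figure D2:**
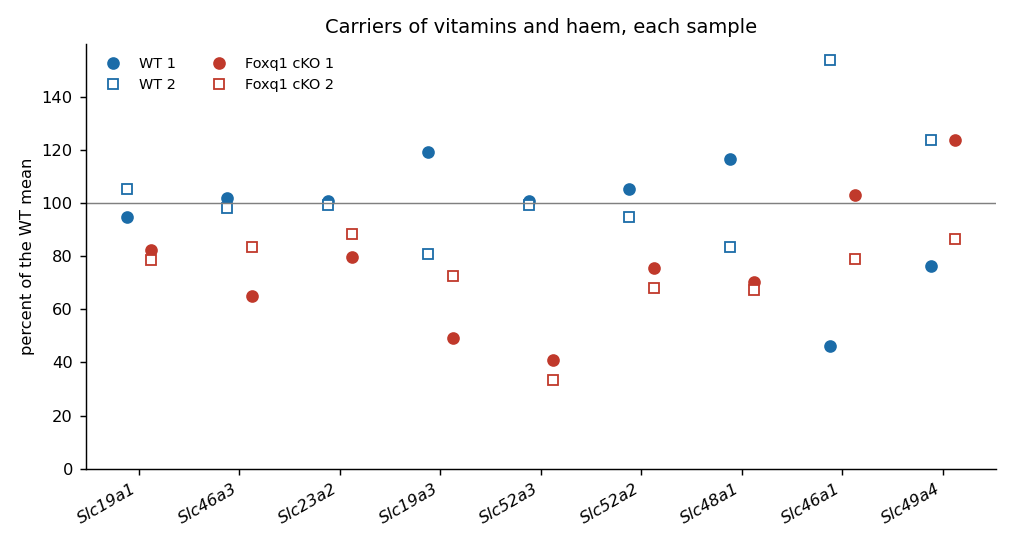
Each sample's normalized count as a percent of the wild-type mean for the 9 vitamin and haem carriers, in order of their wild-type mean count (blue wild-type, red *Foxq1* cKO, circles replicate 1, squares replicate 2). Both *Foxq1* cKO points lie below both wild-type points for 7 genes, and *Slc46a1* and *Slc49a4* overlap.

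Nucleoside transporters include the carriers that clear adenosine from the extracellular space. Of 4 listed, 2 were called lower, where 3.05% of all genes were, and the median log2 fold change was -0.69. *Slc29a1*, the main equilibrative nucleoside transporter of the plasma membrane, had 13504 and 15020 normalized counts in wild-type samples and 9868 and 9068 in *Foxq1* cKO samples. The gap between the groups was larger than the difference between replicates in either. The mean was 66.4% of wild-type (log2 fold change -0.59, standard error 0.132, unadjusted p = 0.00403 from limma). In eBayes without a trend the unadjusted p was 0.106. Per kilobase of exon it was the most abundant of all 104 carriers in wild-type cells, at 3558 normalized counts per kb, and it had 2362 in *Foxq1* cKO cells. Its exons share 275 bases with *Gm17080* on the opposite strand, and the sources used here do not state whether counting used the strand.

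*Slc29a4*, which carries monoamines and adenosine, had 700 and 528 normalized counts in wild-type samples and 130 and 273 in *Foxq1* cKO samples. The higher *Foxq1* cKO value was still below the lower wild-type value, and *Foxq1* cKO replicate 1 was the lowest sample. Its log2 fold change was -1.69 (standard error 0.560, unadjusted p = 0.0232 from limma), the lowest of the called carriers. It was -1.16 without *Foxq1* cKO replicate 1 and -1.49 without wild-type replicate 1, and in both cases no longer called. *Slc29a3*, of lysosomes, overlapped at 937 and 341 against 356 and 299. *Slc29a2* had 8.43 and 0.997 against 3.27 and 129, so that its high fitted change of 2.44 rested on *Foxq1* cKO replicate 2.

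Genes of adenosine metabolism and its receptors were examined beside these transporters. Of 6 listed, *Adora2b*, a low-affinity adenosine receptor, was called lower, with 909 and 1004 normalized counts against 334 and 474 (log2 fold change -1.26, unadjusted p = 0.0146 in limma). *Adora2a*, the receptor with higher affinity, had 5669 and 6840 against 4469 and 5321 and was not called (unadjusted p = 0.0979 in limma). The kinase *Adk*, which phosphorylates adenosine in the cell, had a log2 fold change of -0.01.

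Choline, fatty acid and acetyl-CoA carriers were 6 genes, 2 of them called lower, where 3.05% of all genes were. *Slc44a1*, a choline transporter, had 991 and 727 normalized counts in wild-type samples and 363 and 398 in *Foxq1* cKO samples. *Slc44a5*, a choline transporter-like protein, had 878 and 1144 against 229 and 514. Both genes had their groups apart, with the *Foxq1* cKO means at 44.3% and 36.7% of wild-type. The log2 fold changes were -1.16 (standard error 0.380, unadjusted p = 0.0221 from limma) and -1.54 (standard error 0.496, unadjusted p = 0.0204 from limma). *Slc44a1* was called in the absence of wild-type replicate 2 but not of any other sample, at -0.93 to -1.23 without those, and *Slc44a5* was not called without *Foxq1* cKO replicate 1 (-0.96) or wild-type replicate 2 (-1.35).

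*Slc44a2*, the third gene of this family and at 399 normalized counts per kb the most abundant in wild-type, had 4382 and 2545 against 3399 and 3582, and the interval of its log2 fold change ran from -0.63 to 0.75. The exons of *Slc44a1* overlap *1700060J05Rik* over 310 bases and those of *Slc44a5* overlap *Gm42540* over 113 bases, both on the opposite strand. The fatty acid transport proteins *Slc27a1* and *Slc27a4* and the acetyl-CoA carrier *Slc33a1* had *Foxq1* cKO means at 88.1%, 86.3% and 87.8% of wild-type, and of these only *Slc27a1* had its groups apart.

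Cation-chloride cotransporters move chloride with sodium or potassium and set the volume of the cell. Of 6 listed, 4 had both *Foxq1* cKO samples below both wild-type samples, 1 of them called, with a median log2 fold change of -0.55. This arrangement was found in 18% of all genes. With quantile normalization 3 of the 6 had it, and 17.5% of all genes did. *Slc12a9*, a less studied member of the family, had 728 and 1212 normalized counts in wild-type samples and 339 and 549 in *Foxq1* cKO samples. The replicates differed widely within both groups, and the gap between the groups was narrow beside them. The log2 fold change was -1.12 (standard error 0.444, unadjusted p = 0.0446 from limma), and without *Foxq1* cKO replicate 1, without *Foxq1* cKO replicate 2 or without wild-type replicate 2 it was -0.77, -1.47 and -0.75 and no longer called.

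*Slc12a2*, the sodium-potassium-chloride cotransporter NKCC1, had 1577 and 1462 against 1248 and 1007 normalized counts (unadjusted p = 0.144 in limma). The potassium-chloride cotransporters *Slc12a4* and *Slc12a7* had *Foxq1* cKO means at 64.4% and 59.9% of wild-type, with unadjusted p-values of 0.164 and 0.121 in limma. *Slc12a5*, known as a neuronal potassium-chloride cotransporter, had 87.6 and 3.99 against 151 and 1.02, so that the first replicate of each group carried nearly all of its counts and its sign depended on the model. None of the 7 listed kinases and regulators of these cotransporters was called.

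Bicarbonate, chloride and sulphate exchangers numbered 7, with 1 called higher. *Slc4a7*, which brings bicarbonate into the cell with sodium, had 254 and 271 normalized counts in wild-type samples and 640 and 587 in *Foxq1* cKO samples. The replicates of both groups were close and the groups far apart, at 2.33 times the wild-type mean (log2 fold change 1.22, standard error 0.422, unadjusted p = 0.0273 from limma). Without either *Foxq1* cKO sample it was 1.16 or 1.28 and not called. *Slc26a2*, a sulphate carrier just outside the threshold (unadjusted p = 0.0526 in limma), had 768 and 887 against 482 and 442. *Slc4a4*, an electrogenic sodium bicarbonate cotransporter, had 581 and 65.8 against 212 and 344, and its sign depended on the model. *Slc4a2*, *Slc26a6*, *Slc26a11* and the red cell anion exchanger *Slc4a1* overlapped, with log2 fold changes of -0.29, -0.11, -0.35 and -0.65.

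None of the 6 sodium, proton and calcium exchangers had its groups apart. *Slc8a1*, a sodium-calcium exchanger, had 141 and 359 normalized counts against 108 and 273. *Slc9a8* and *Slc9a9*, of the Golgi and endosomes, had log2 fold changes of 0.89 and 0.50. Of 6 scaffold genes that bind such exchangers, *Slc9a3r1* was called lower, with 4900 and 4391 normalized counts against 3278 and 2493 (log2 fold change -0.70, unadjusted p = 0.0145 in limma). None of the 6 genes of the sodium pump was called.

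Sugar, polyol and other sodium-coupled carriers numbered 8, with 1 called higher. *Slc2a9*, a urate carrier of the glucose transporter family, had 9.27 and 16.9 normalized counts in wild-type samples and 196 and 193 in *Foxq1* cKO samples, from 11, 17, 180 and 190 reads. It was low in both wild-type samples and the *Foxq1* cKO samples agreed closely. The *Foxq1* cKO mean was 14.8 times the wild-type mean (log2 fold change 3.85, standard error 0.869, unadjusted p = 0.00430 from limma), and DESeq2 gave an adjusted p of 0.0413. Its level per length was 2.58 normalized counts per kb of exon in wild-type and 38.3 in *Foxq1* cKO cells. *Slc2a9* (ENSMUSG00000005107) lies on the minus strand of chromosome 5, at 38349273 to 38503143.

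None of the other glucose transporter relatives was called. *Slc2a10* had 636 and 566 against 235 and 400 normalized counts (unadjusted p = 0.0819 in limma), and *Slc2a12* had 560 and 172 against 75.1 and 163 (unadjusted p = 0.121 in limma). *Slc2a8* overlapped, with a log2 fold change of -0.54, and the sugar carrier *Slc50a1* had a *Foxq1* cKO mean at 99.1% of wild-type. *Slc5a3*, which imports myo-inositol, and *Slc5a6*, the sodium-dependent carrier of biotin and pantothenate, overlapped with log2 fold changes of 0.09 and -0.58, as did the iodide carrier *Slc5a5*.

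**Figure D3:**
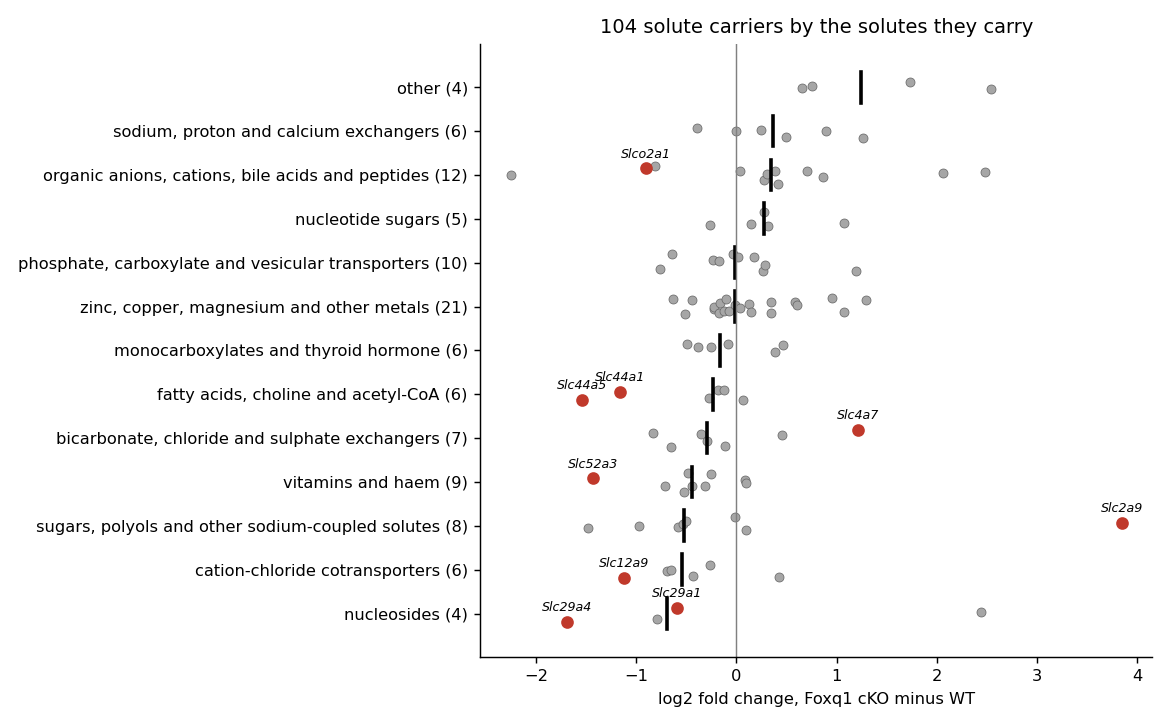
Log2 fold change (*Foxq1* cKO minus wild-type) of each of the 104 carriers, grouped by gene family under solute names. The number of genes is in brackets, called genes are red and named, and a black bar marks each group's median. The medians run from -0.69 for nucleoside carriers to 1.25 for the 4 genes grouped as other, and called genes occur in 7 of the 13 groups.

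Metal carriers were the largest group, with 21 genes, and none was called. *Slc39a10* and *Slc39a8*, which import zinc, and *Slc31a1*, which imports copper, ranked 2, 5 and 3 among the 104 carriers in wild-type cells by level per exon length, at 3197, 2539 and 2885 normalized counts per kb. *Slc39a10* had 17626 and 21348 normalized counts against 19966 and 19823, *Slc39a8* had 19189 and 19730 against 16884 and 17934, and *Slc31a1* had 12493 and 12206 against 10480 and 12281. Their intervals of log2 fold change were narrow, from -0.28 to 0.36, from -0.43 to 0.11 and from -0.45 to 0.21.

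*Slc39a3*, another zinc importer and just outside the threshold (unadjusted p = 0.0606 in limma), had 449 and 1050 normalized counts in wild-type samples and 2572 and 1102 in *Foxq1* cKO samples. Its groups were apart by a small margin, and *Foxq1* cKO replicate 1 stood above the other 3 samples. *Slc39a11* was lower in both *Foxq1* cKO samples, at 692 and 870 against 1024 and 1204 (unadjusted p = 0.141 in limma). Over the 10 listed Slc39 importers the median log2 fold change was 0.01, and over the 7 listed Slc30 exporters it was 0.14. Among the exporters *Slc30a6* (164 and 383 against 474 and 595) and *Slc30a10* (1368 and 1535 against 1624 and 1577) were higher in both *Foxq1* cKO samples. *Slc41a1*, a magnesium carrier, had a log2 fold change of -0.11, *Slc30a1*, the zinc exporter of the plasma membrane, one of -0.22, and *Slc39a1*, a zinc importer, one of -0.17. The remaining metal carriers lay between -0.64 (*Slc30a9*) and 0.95 (*Slc39a12*), and of these *Slc39a12* was higher and *Slc31a2* lower in both *Foxq1* cKO samples. *Mt1*, a metallothionein that binds zinc and copper, had 159 and 121 against 355 and 348 (unadjusted p = 0.0533 in limma), and none of the 6 listed genes of metal handling was called.

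Thyroid hormone and monocarboxylate carriers numbered 6, and none was called. *Slc16a4* was higher in both *Foxq1* cKO samples, at 1801 and 1696 normalized counts against 1014 and 1568. *Slc16a6* and *Slc16a12* overlapped, with log2 fold changes of -0.49 and 0.38. *Dio2*, which activates thyroid hormone, had 292 and 269 against 435 and 306 and was not called.

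Nucleotide sugar carriers of the Slc35a family supply the Golgi, and none of the 5 was called. *Slc35a4* and *Slc35a3* were higher in both *Foxq1* cKO samples, the latter at 565 and 133 against 131 and 129, where *Foxq1* cKO replicate 1 alone stood out. *Slc35a1*, the CMP-sialic acid carrier, and *Slc35a2*, the UDP-galactose carrier, overlapped with log2 fold changes of 0.15 and -0.27. Of 16 further listed Slc35 genes whose names fall outside the rule, *Slc35b4* was called higher, with 829 and 680 against 1250 and 1704 normalized counts (log2 fold change 0.96, unadjusted p = 0.0204 in limma).

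Phosphate, carboxylate and vesicular carriers numbered 10, with none called and a median log2 fold change of -0.01. *Slc20a2*, a phosphate importer, had 600 and 355 normalized counts against 299 and 245, and *Slc20a1*, its relative, overlapped. *Slc17a5*, which exports sialic acid from lysosomes, had 1938 and 1191 against 809 and 1175. The glucose-6-phosphate carrier *Slc37a4* overlapped at 607 and 590 against 892 and 384, and its sign depended on the model. *Slc17a6*, known as a vesicular glutamate transporter of neurons, had 30.3 and 68.8 against 131 and 86.5. Of the urea and lysosomal carriers grouped as other, *Slc14a2* had 38.8 and 205 against 223 and 404, and *Slc66a1* and *Slc66a2* were also higher in both *Foxq1* cKO samples, none of them called. *Slc14a1*, a urea carrier, overlapped at 0.843 and 361 against 262 and 84.4, with a log2 fold change of 2.54 in limma and -0.06 in DESeq2.

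Across the 104 carriers, 17 had both *Foxq1* cKO samples above both wild-type samples (16.3%, against 18% of all genes) and 27 had both below (26.0%, against 18%). With quantile normalization 23 had both below (22.1%, against 17.5%). The median log2 fold change was -0.08, and over all genes tested it was 0.01. The lower arrangement was found mainly at high level. Of the 33 carriers with a mean of at least 1000 normalized counts, 15 (45.5%) had both *Foxq1* cKO samples below, where 23.5% of all genes at that level did, and with quantile normalization the shares were 36.4% and 18%. Between 200 and 1000 the shares were 19.6% and 16%, and below 200 they were 10% and 14.9%. No test of these differences between the carriers and all genes was made.

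**Figure D4:**
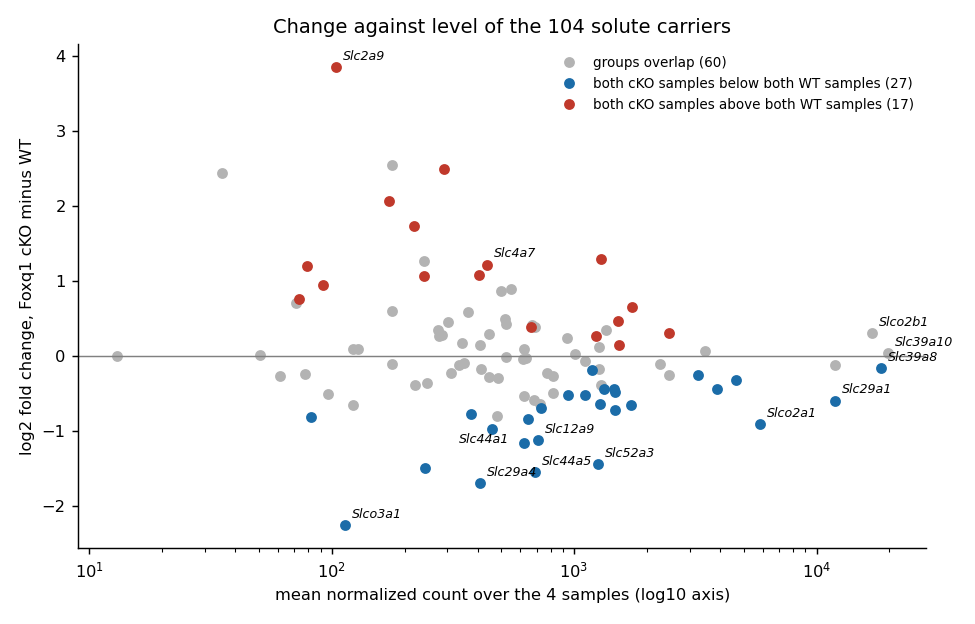
Log2 fold change (*Foxq1* cKO minus wild-type) of the 104 carriers against their mean normalized count over the 4 samples on a log10 axis. Blue points, 27 genes with both *Foxq1* cKO samples below both wild-type samples, include 15 with a mean of at least 1000, red points are the 17 genes with the opposite arrangement, and grey points are genes whose groups overlap.

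The low end of the range was noisy. The median absolute log2 ratio between the wild-type replicates was 1.22 for the 20 carriers with a mean under 200 and 0.33 for the 33 with a mean of at least 1000. Over all 104 it was 0.70, against 0.53 over all genes, and between the *Foxq1* cKO replicates 0.51 against 0.41.

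Beside the lower carriers, marker genes of other cells also differed in summed level. The 9 microglia and macrophage markers summed to 10284 and 12924 normalized counts in wild-type samples and 7543 and 8855 in *Foxq1* cKO samples, and the 8 radial glia and astrocyte markers to 13909 and 13828 against 11296 and 11797, both without overlap. Of the microglia markers 3 were lower in both *Foxq1* cKO samples and 6 overlapped. This lower arrangement was found in 18% of all genes, and in 23.5% of those averaging 1000 or more. Of 7 glial markers tested 4 were lower, such as *Gfap* (3073 and 2420 against 1081 and 1329). *Aqp4* was higher, and 2 overlapped, among them *Fabp7* (5596 and 5731 against 5499 and 6104), which had the largest counts. The endothelial markers themselves summed to 270044 and 249050 against 227449 and 246088, also without overlap. Of these 10 markers 5 were lower in both *Foxq1* cKO samples, 1 (*Cdh5*) was higher and 4 overlapped. Sums over the 8 neuronal markers listed of 9 overlapped, between 2874 and 4433, as did those of the 6 erythroid markers, between 15683 and 20673, of the 3 fibroblast markers listed of 5, between 5626 and 9727, of 2 oligodendrocyte lineage markers of 6, between 1323 and 3182, and of 2 choroid plexus markers of 7, between 2111 and 3210. The part of these cells in the lower carrier values was not tested.

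The carriers left out by the rule were counted in the same way. Of 36 Slc25 carriers 1 (2.78%) was called lower, against 3.05% of all genes, and none higher. By arrangement 1 was lower and 4 were higher, against 18% of all genes in each direction, and the median log2 fold change was 0.02. Of 35 carriers of the amino acid families 3 (8.57%) were called lower, against 3.05% of all genes, and none higher. By arrangement 13 of these 35 were lower, beside 27 of the 104 carriers described here and 18% of all genes. The median was -0.23, beside -0.08 for the 104. Of the 9 single carriers 1 (11.1%) was called lower. Over the 52 listed partner genes of the carriers 1 was called higher and 2 lower, 5.77% against the background of 5.22%. The differences between these lists were not tested.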

How the data were processed

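RNA-seq of CD31-sorted cortical brain ECs comprised 4 samples, 2 wild-type and 2 *Foxq1* cKO by their labels. The authors deposited 1 table of normalized counts, a signal per gene equal to the reads divided by a factor common to all genes of a sample. The submitters' processing notes name TopHat2 2.0.12, Bowtie2 2.2.3, HTSeq 0.6.0 and mm9. The labels describe total RNA from brain, while the study's methods describe sorted cortical cells. Repeated lines were reduced to 12693 symbols. Coordinates are from GENCODE M21 (GRCm38), which held 12678 of the 12701 identifiers, and the deposited table itself gives no build. The fewest reads summed over the samples for any listed gene were 21, and the lowest value in each sample was 1 read. No listed gene thus lacked reads in any sample. Genes without reads in even 1 sample, such as those detected in 1 group only, may be missing from the table.

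The design allowed for counts or normalized values. Because the unit is a signal, the main test was limma 3.58.1 in R 4.3.3 (eBayes with a trend, two-sided) on log2 of the value plus 1, over the 12472 genes whose mean reached 10, with Benjamini-Hochberg adjustment over all of them. DESeq2 1.42.0 and edgeR 4.0.16 (quasi-likelihood) were run on recovered reads as alternatives. All values were whole multiples of 1 step per sample within 0.01 reads, and for wild-type replicate 2, whose step is close to 1, this was tested directly. An exact permutation test of 2 against 2 samples cannot give a p below 0.333. The scripts were tested on simulated data. Intervals are 95% intervals from limma. Levels were divided by exon length only where genes are compared.

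The genes named were every carrier called by limma or by DESeq2 or edgeR after adjustment, 51 carriers known from brain endothelium or cell physiology (47 listed), and, of the other carriers whose groups were apart, the 5 with the greatest rise and the 5 with the greatest fall. A few of these carriers are not reported here. Further carriers and partner genes were named after their values were seen, to account for every group. The carriers, lists and rules were chosen with earlier results of these data known. Alternatives were pseudocounts of 0.1 and 5, no filter and a minimum mean of 50, TMM and quantile scaling, eBayes without a trend, the replicate number as a block, the 2 count models and each sample left out. Figures were drawn with matplotlib 3.10.9.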

Additional observations from a re-analysis of the deposited data

How the results depend on the processing

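In the 10 alternatives that kept all 4 samples, the 9 called carriers kept their direction and, apart from *Slc12a9* and *Slc29a1* in eBayes without a trend, an unadjusted p under 0.05. In that setting limma gave *Slc12a9* an unadjusted p of 0.0735 and *Slc29a1* one of 0.106, and the cause was not tested. DESeq2 gave 4 higher (3.85%) and 11 lower (10.6%) carriers, 15 in all, against 2.72% and 3.77% of all genes, with 3 carriers after adjustment, and 5 partner genes. The replicate number as a block gave 2 higher and 7 lower carriers and 5 partner genes. The numbers 1 and 2 are shared only as numbers, with a correlation of 0.0325 between the deviations of same-numbered samples over 12472 genes. With 1 sample left out, the lone sample of a group is assumed to vary like the others. The carriers called then numbered 2 to 12 higher and 4 to 12 lower, 6 to 24 in all, with 24 without wild-type replicate 2, and the partner genes 3 to 6. In the same fits between 0.53% and 7.89% of all genes were called higher and between 1.69% and 4.75% lower. With quantile normalization 23 carriers in place of 27 had both *Foxq1* cKO samples below, without *Slc12a4*, *Slc17a5*, *Slc27a1* and *Slc31a2*, and the 7 vitamin and haem carriers were among the 23. The median log2 fold change ran from -0.15 to 0.0049, reversed without *Foxq1* cKO replicate 2. *Slco2a1*, *Slc52a3*, *Slc29a1* and *Slc2a9* stayed under an unadjusted p of 0.05 with any 1 sample left out. The other calls were lost without certain samples, *Slc44a1* without either *Foxq1* cKO sample or wild-type 1, *Slc29a4* without *Foxq1* cKO 1 or wild-type 1, *Slc44a5* without *Foxq1* cKO 1 or wild-type 2, *Slc4a7* without either *Foxq1* cKO sample, and *Slc12a9* without any sample but wild-type 1.

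Of the 104 carriers 8 had another sign in DESeq2 and edgeR than in limma, none of them called, and 3 of these were among the genes named by rule. *Slc37a4* was at 0.091 in DESeq2 and 0.092 in edgeR, *Slc46a1* at -0.14 in DESeq2, -0.14 in edgeR and -0.051 with quantile normalization, and *Slc4a4* at -0.22 in DESeq2 and -0.21 in edgeR. With 1 sample left out, log2 fold changes that reversed ran from -0.23 to 0.29 for *Slc10a7*, -0.75 to 0.40 for *Slc20a1*, -0.28 to 2.02 for *Slc22a5*, -0.64 to 0.40 for *Slc27a4*, -0.53 to 0.081 for *Slc30a1*, -0.77 to 0.23 for *Slc33a1*, -0.039 to 0.34 for *Slc35a1*, -0.61 to 0.079 for *Slc35a2* and -0.64 to 0.57 for *Slc37a4*. They ran from -0.61 to 0.27 for *Slc39a1*, -0.10 to 0.17 for *Slc39a10*, -0.27 to 0.057 for *Slc41a1*, -0.33 to 0.45 for *Slc44a2*, -0.76 to 0.95 for *Slc46a1*, -0.59 to 0.018 for *Slc4a2*, -1.10 to 2.02 for *Slc4a4*, -0.50 to 0.68 for *Slc5a3*, -1.37 to 0.22 for *Slc5a6* and -1.06 to 0.28 for *Slc8a1*. With 2 samples a group the direction of these genes is not settled. Normalized reads of libraries without molecular identifiers are not independent molecules, so the depth limits low carriers more than counting alone.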
